A study of Mus musculus with 6 samples.

Results

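Megalin, cubilin and the proteins that work with them form the machinery by which the first part of the proximal tubule takes filtered protein back from the urine. Open chromatin at 9 genes of this machinery was described here, namely Lrp2, Cubn, Amn, Dab2, Clcn5, Lrpap1, Folr1, Fcgrt and Myo6. A region of open chromatin was assigned to a gene when its summit lay in the gene body or within 20 kb of it, which gave 139 of the 99359 regions found in the series. The assay was ATAC-seq, a method that uses a transposase to mark accessible DNA, on 6 libraries from hand-dissected kidney proximal tubules of the S1 segment, the part next to the glomerulus. The mice were wild-type male C57BL/6 animals of 7 weeks, and were sampled at 24 h. A first group of 3 libraries came from sham-operated mice (Sham), and the other 3 from mice that had lost 1 kidney by unilateral nephrectomy (UNx). Each library pooled 3 tubules. The labels do not say whether libraries came from separate mice, so the p-values measure the spread between these libraries only.

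Megalin (Lrp2) and cubilin (Cubn) are large receptors of the brush border that bind albumin, vitamin carriers and many other filtered proteins. Cubilin has no membrane anchor of its own and needs amnionless (Amn) to reach the surface, and megalin needs the chaperone RAP (Lrpap1) to fold. The adaptor Dab2 links the receptors to clathrin, the motor myosin VI (Myo6) moves the coated vesicles along actin, and the chloride/proton exchanger ClC-5 (Clcn5) serves the acidifying endosome. The folate receptor (Folr1) is another cargo receptor of this membrane, and the neonatal Fc receptor (Fcgrt) returns albumin and IgG from the endosome.

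The authors deposited 1 peak list per library, with no read counts, so the sequencing depth is unknown. Peak strength was therefore expressed as a percentile rank by the authors' −log10 q within each list, after every list had been cut to its 77355 strongest peaks. A percentile near 100 is the strongest peak of a library, and 0 means that the region was not among these peaks. The lists held 77355 to 100999 peaks before this step. Sham 2 had the shortest list and the lowest median −log10 q (12.1), and UNx 3 had the highest (26.5). Promoters of all 6 S1 markers were open in all 6 lists, with a mean percentile of 84.2 to 85.3 in Sham and 83.8 to 86.9 in UNx. None of 3 immune markers had a promoter region. Markers of later segments had 2 of 5 promoters absent from every list (Slc12a3 and Aqp2), and their mean percentile was 42.2 to 44.2 in Sham against 33.9 to 39.2 in UNx. Within that list Slc12a1 (57.9, 52.4 and 60.2 against 38.2, 32.9 and 19.4) and Scnn1g (90.8, 92.4 and 95.7 against 89.0, 86.1 and 85.4) were lower in UNx without overlap, while Umod had a higher UNx mean (65.1, 66.2 and 65.0 against 68.9, 74.2 and 65.0). The 4 endothelial promoters averaged 5.11 to 5.86 in Sham and 0 to 1.10 in UNx, and Flt1 was at 0 in all UNx libraries. The S2 and S3 list averaged 56.8 to 59.1 in Sham and 52.7 to 56.2 in UNx, with Slc22a7 lower and Slc16a9 higher, both without overlap. Promoters with no region counted as 0 in all these averages, here Slc7a13. The promoters present had Sham and UNx means of 66.6 and 50.1 (Slc22a7), 78.6 and 75.6 (Slc5a10), and 87.3 and 93.8 (Slc16a9). The podocyte list averaged 25.9 to 34.4 and 29.2 to 35.3, with Wt1 higher in UNx without overlap. Of 3 stromal markers only Col1a1 had a promoter region, at 69.4, 68.9 and 69.1 in Sham and 54.1, 66.1 and 63.0 in UNx. The part of these cells in the differences below was not tested, and in such pooled tubules fewer cells of a type cannot be told apart from less open chromatin per cell.

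Of the 139 regions, 18 were promoter regions, meaning that the summit and a start of the gene lay at most 1 kb apart. A further 113 were distal, and 8 lay at the start of a neighbouring gene. The regions were spread unevenly. Dab2 had 35, Lrp2 33, Myo6 22, Cubn 14, Folr1 10, Clcn5 and Fcgrt 8 each, Amn 5 and Lrpap1 4. Per 100 kb of gene with its flanks, Dab2 had 19.3 regions, Lrp2 16.4 and Myo6 11.8, against a median of 4.11 over the 2492 protein-coding genes of at least 100 kb. Cubn had 5.48 and Clcn5 3.89. Promoter regions of the 9 genes were present in all 6 lists in 14 of 18 cases (77.8%) and distal ones in 50 of 113 (44.2%). These shares were near the 74.8% of all regions within 1 kb of a start and the 48.2% of those away from starts. Altogether 69 of the 139 regions (49.6%) were found in all 6 lists, against 53.4% of all regions.

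UNx was compared with Sham to ask how loss of 1 kidney alters chromatin at these genes at 24 h. No region of the 9 genes passed the threshold in the fit over all 74781 regions present in at least 3 lists (0 of 104 tested; limma, Benjamini-Hochberg adjusted p under 0.05), where 589 regions passed (0.788%), 325 of them higher in UNx (0.435%) and 264 lower (0.353%). The lowest adjusted p among the 104 was 0.0931. At an unadjusted p under 0.05 there were 17 of 104, a share below the 18.6% of all tested regions. The standard error of a difference had a median of 8.18 percentile points over the 104 regions, so changes of several points at a single weak region were not detectable. The values below are therefore described by direction and by whether the 3 Sham and the 3 UNx values overlapped. Values did not overlap in 10 regions that were higher in UNx (12.0% of all tested regions) and in 11 that were lower (11.7%).

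The strongest promoter regions of 8 of the 9 genes had a lower mean rank in UNx than in Sham, and the exception was Fcgrt. The median difference over the 9 promoters was −3.45 percentile points, and it was −0.20 over 13338 tested promoters of protein-coding genes, of which 7073 were lower and 6265 higher. At Lrp2, Cubn, Dab2 and Folr1 every UNx library ranked below every Sham library, 4 of 9 promoters against 10.6% of all tested protein-coding promoters. When each library was left out in turn, 7 or 8 of the 9 were lower, with medians between −3.81 and −2.61. With ranks by fold enrichment instead of −log10 q all 9 were lower, with a median of −10.6 against −1.22 over all promoters. With all deposited peaks 7 were lower, with a median of −1.89 against 0.40, and 43.6% of all promoters were lower. None of the 9 passed the threshold. Over all 18 promoter regions, with the weaker ones of the same genes, 10 had a lower mean in UNx and 8 a higher one. Their median difference was −0.54 points, and 50.2% of tested regions within 1 kb of any start were higher. Weaker promoter regions of Lrp2 and Dab2, described below, were higher in UNx without overlap.

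**Figure D1:**
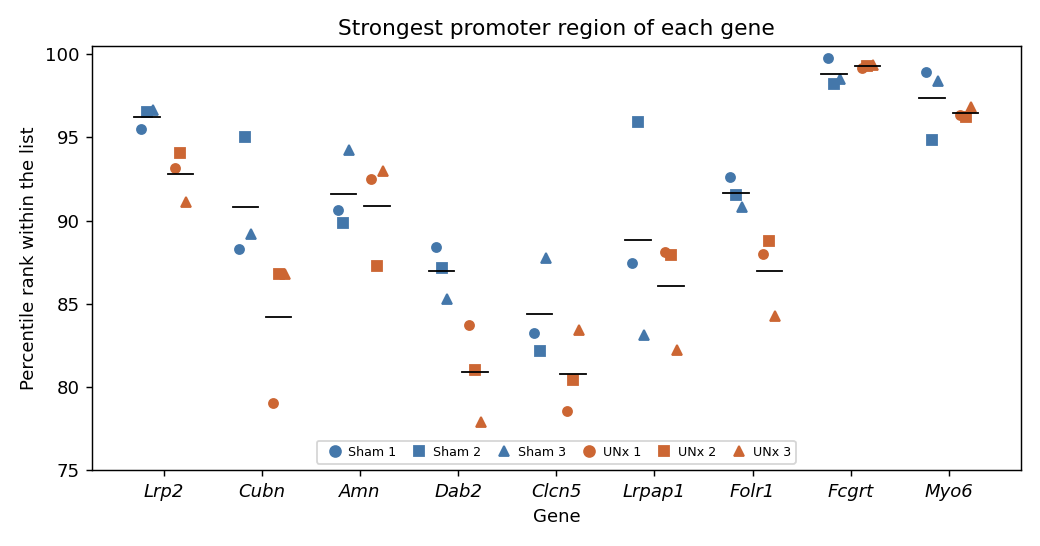
Percentile rank (vertical axis, cut at 75) of the strongest promoter region of each gene in every library, with Sham in blue, UNx in orange and black bars at the group means. At Lrp2, Cubn, Dab2 and Folr1 the 3 UNx points lie below the 3 Sham points, and Fcgrt and Myo6 sit near the top in all libraries.

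In order of mean percentile over the 6 libraries the promoters were Fcgrt (99.1), Myo6 (96.9), Lrp2 (94.5), Amn (91.3), Folr1 (89.3), Cubn (87.5), Lrpap1 (87.5), Dab2 (83.9) and Clcn5 (82.6). The ranges of neighbours in this order overlapped in every case. Among all protein-coding promoters, Fcgrt stood above 95.9% and Lrp2 above 75.8%, whereas Clcn5 and Dab2 stood above 44.1% and 46.5%.

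Lrp2, which encodes megalin, had its main promoter region at chr2:69585676-69586491 (GRCm38), with the summit 39 bp upstream of the start on the minus strand. Its percentile was 95.5, 96.5 and 96.7 in Sham 1, 2 and 3 and 93.2, 94.1 and 91.1 in UNx 1, 2 and 3. The lowest Sham value thus lay above the highest UNx value. The difference was −3.45 ± 1.61 points (SE; limma adjusted p = 0.260). Cubn, which encodes cubilin, had its promoter region at chr2:13491617-13492579. Its percentile was 88.3, 95.0 and 89.2 in Sham and 79.1, 86.8 and 86.8 in UNx. The difference was −6.64 ± 2.81 points (SE; limma adjusted p = 0.214), again with no overlap of the groups. It was −4.06 without UNx 1, the lowest library, and −3.12 after the GC trend of each library had been removed.

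The pair of receptor genes have unlike promoters. The 200 bases upstream of the most upstream start under each peak (GRCm38, gene strand, 5′ to 3′) are shown to let the base composition be compared. Lrp2 had 66% G and C and 13 CpG dinucleotides, and Cubn had 37% and no CpG. None of the factor strings searched for occurs in either, so neither has capitals.
Lrp2 promoter, chr2:69586066-69586265: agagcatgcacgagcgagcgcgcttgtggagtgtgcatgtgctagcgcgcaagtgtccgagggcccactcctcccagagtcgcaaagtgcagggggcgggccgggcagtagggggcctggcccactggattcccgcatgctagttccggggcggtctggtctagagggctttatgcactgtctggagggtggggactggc
Cubn promoter, chr2:13491877-13492076: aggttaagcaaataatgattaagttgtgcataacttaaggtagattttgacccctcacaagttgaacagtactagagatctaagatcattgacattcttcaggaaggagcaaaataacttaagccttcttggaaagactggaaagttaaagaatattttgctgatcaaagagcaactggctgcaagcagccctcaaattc

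Away from its main promoter region Lrp2 showed differences in both directions. The region 13.5 kb upstream of the start (chr2:69599048-69599779, intergenic) was at 52.3, 64.4 and 54.6 in Sham and at 27.9, 30.3 and 37.1 in UNx. All UNx libraries were lower, by 25.4 points on average (difference −25.36 ± 8.70, SE; limma adjusted p = 0.136). With regions joined only at a reciprocal overlap of at least 50% the difference was −3.9. In an intron, a region 26.4 kb downstream of the start was absent from every Sham list, also among all deposited peaks, and at 17.5, 14.4 and 34.6 in UNx. A small second promoter region, 873 bp upstream of the start, was at 0 in the cut Sham lists and at 24.003, 17.04 and 25.3 in UNx. The deposited Sham 3 list holds a weak peak there. The intron region 19.5 kb downstream also had no overlap, with 56.6, 62.2 and 58.5 in Sham and 71.0, 68.2 and 74.8 in UNx. The strongest distal region of Lrp2 lay in an intron 140 kb downstream of the start (chr2:69445935-69446403) at 81.9, 62.6 and 56.7 in Sham and 70.2, 84.0 and 84.4 in UNx, values that overlapped. Past the end of the gene, 170.7 kb from the start, a weak region was present in all 3 cut Sham lists (15.1, 12.0 and 14.9) and in no cut UNx list, but the deposited UNx 2 and UNx 3 lists hold it.

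Windows of 201 bases around the summit are shown for the Lrp2 regions with the largest downward difference and the highest distal rank, on the strand of the gene. Capitals mark matches to an HNF4 string (CAAAGTCCA) and an AP-1 string (TGANTCA). The intron window was picked because it holds the HNF4 string, so that match was fixed by the choice. The intron window also holds the AP-1 string, and the upstream window holds neither.
Lrp2 13.5 kb upstream, chr2:69599512-69599712: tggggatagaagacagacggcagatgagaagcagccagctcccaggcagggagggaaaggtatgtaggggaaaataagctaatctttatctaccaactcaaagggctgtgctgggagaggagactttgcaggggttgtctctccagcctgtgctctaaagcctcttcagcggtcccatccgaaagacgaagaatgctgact
Lrp2 intron at 140 kb, chr2:69445970-69446170: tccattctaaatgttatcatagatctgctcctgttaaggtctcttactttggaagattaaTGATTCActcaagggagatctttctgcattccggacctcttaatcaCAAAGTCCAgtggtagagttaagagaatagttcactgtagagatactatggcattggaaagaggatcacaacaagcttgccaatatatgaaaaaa

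Cubn showed a different layout, with its open chromatin at the 5′ end. The first 20 kb of the gene body held 4 regions, all of them tested, and the remaining part of this 215.5 kb gene held 5 regions, of which 1 was present in at least 3 lists and the strongest had a mean percentile of 4.29. In contrast, the remaining parts of the Lrp2, Dab2 and Myo6 bodies held 17, 26 and 13 regions, with 6, 10 and 8 of them in all lists. The intron region 10.8 kb downstream of the Cubn start (chr2:13480834-13481148) was at 0 in the cut Sham lists and at 18.0, 31.9 and 33.4 in UNx. All UNx libraries were higher (difference 27.76 ± 9.05, SE; limma adjusted p = 0.121), although the deposited Sham 1 list holds a weak peak with a −log10 q of 4.32. With ranks by fold enrichment the difference was 6.0. A neighbour 7.0 kb downstream of the start was at 0, 5.38 and 0 in Sham and at 17.9, 7.96 and 54.9 in UNx. Its difference of 25.1 points was 11.2 without UNx 3. The strongest distal region of Cubn, 12.5 kb downstream, was at 65.0, 2.67 and 50.1 in Sham and 49.8, 47.5 and 64.5 in UNx, so its higher UNx mean rested on Sham 2, and the difference was −3.61 without that library. The region seen in UNx lists at 10.8 kb is shown with its AP-1 match in capitals.
Cubn intron at 10.8 kb, chr2:13480907-13481107: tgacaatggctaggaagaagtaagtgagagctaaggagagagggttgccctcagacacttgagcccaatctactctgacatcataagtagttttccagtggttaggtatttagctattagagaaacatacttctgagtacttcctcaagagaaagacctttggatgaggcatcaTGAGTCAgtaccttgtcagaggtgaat

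**Figure D2:**
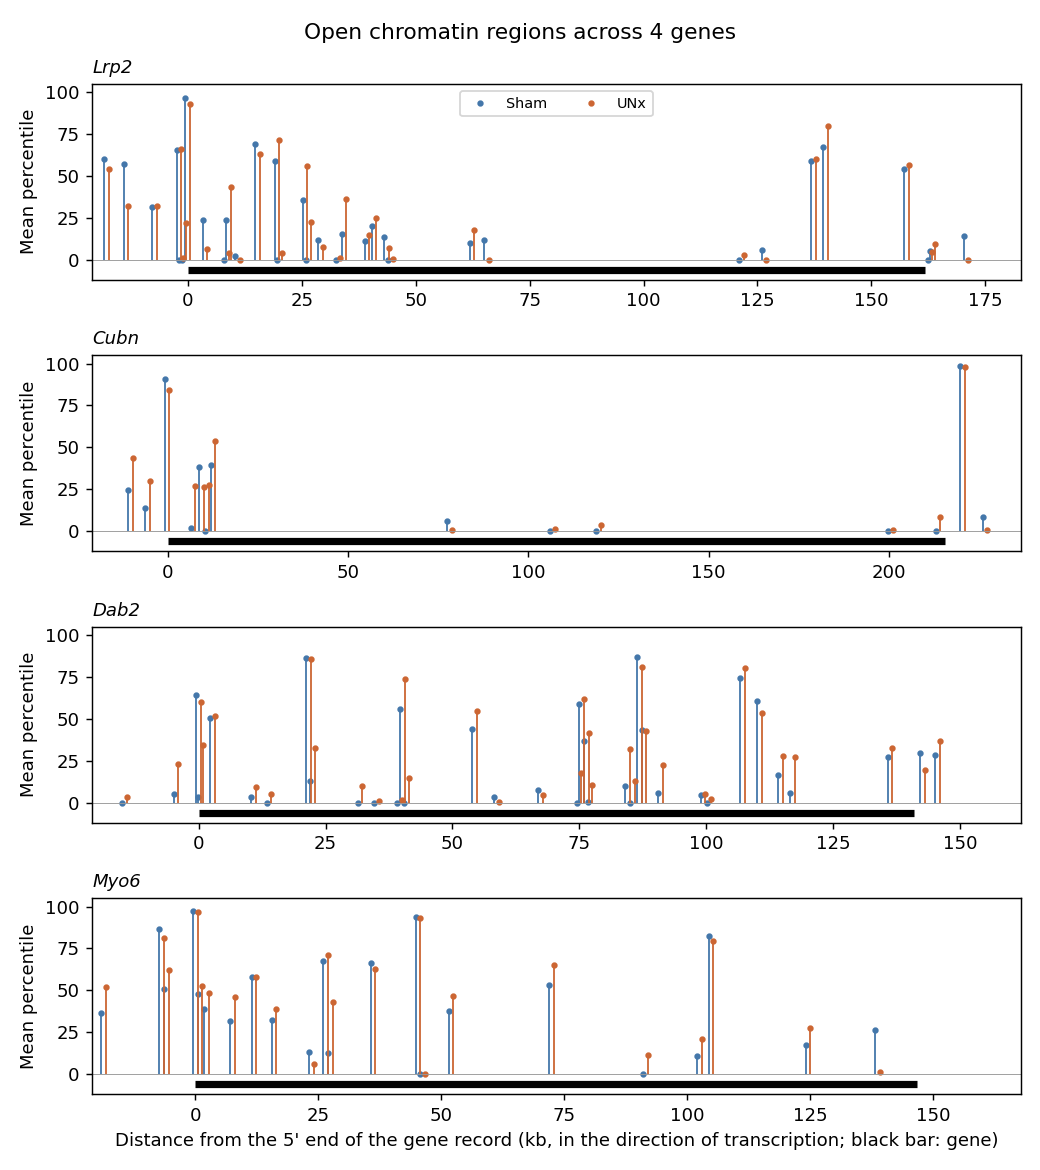
Mean percentile of each region in Sham (blue) and UNx (orange) against the distance from the 5′ end of the gene record in kb, for Lrp2, Cubn, Dab2 and Myo6, with the gene as a black bar. Cubn has its regions near the start and a long stretch with regions of low rank, while Dab2 and Myo6 have regions of high rank across the gene; the peak beyond the end of Cubn is the start of the neighbouring gene Rsu1.

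The partner and chaperone genes are short and had few regions. The Amn promoter (chr12:111270602-111271703) was at 90.7, 89.9 and 94.3 in Sham and 92.5, 87.3 and 93.0 in UNx. These values overlapped, and the difference of −0.69 changed sign without Sham 3 or UNx 2. Its strongest distal region, 5.44 kb from the start and just past the gene end, lay at 59.8 to 65.6 in Sham and 61.1 to 66.4 in UNx. The Lrpap1 promoter (chr5:35104277-35106140) was at 87.5, 96.0 and 83.1 in Sham and 88.1, 87.9 and 82.2 in UNx. The difference was −2.77, and it was 0.78 without Sham 2. In the deposited lists this promoter had 2 separate intervals in every Sham library and in UNx 2, and 1 joined interval of 1679 and 1780 bp in UNx 1 and UNx 3. All 4 tested regions of Lrpap1 had a lower mean in UNx. The region 16.7 kb downstream of its start, past the gene end, was at 65.1, 52.4 and 64.0 in Sham and 43.7, 51.4 and 43.3 in UNx, a difference of −14.40 ± 7.55 (SE; limma adjusted p = 0.317).

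Dab2 had the most regions of the 9 genes. Its highest promoter region was not at the 5′ end of the gene but at an internal annotated start (chr15:6386278-6386952). Percentiles there were 88.4, 87.1 and 85.3 in Sham and 83.7, 81.0 and 77.9 in UNx. The groups did not overlap (difference −6.07 ± 3.02, SE; limma adjusted p = 0.290). The start at the 5′ end of the gene was at 57.2, 70.2 and 64.6 in Sham and 60.3, 66.9 and 52.6 in UNx, with overlap. Just inside it, 358 bp downstream, a region of 204 bp was at 0, 0 and 10.4 in Sham and 44.1, 44.3 and 15.2 in UNx. This was the largest difference upwards among the 104 regions (31.10 ± 10.999, SE; limma adjusted p = 0.146). The region 11.9 kb upstream of the internal start was absent from the cut Sham lists and at 21.9, 11.8 and 20.1 in UNx, with weak peaks in the deposited Sham 1 and Sham 3 lists. The strongest distal region of Dab2, in an intron 21.6 kb downstream of the 5′ start, was at 90.8, 82.4 and 86.6 in Sham and 87.2, 85.7 and 84.0 in UNx. A second strong intron region, 20150 bp downstream of the internal start, was at 76.4, 76.7 and 69.9 in Sham and 79.0, 81.3 and 81.2 in UNx, all UNx values being higher. Of 24 tested Dab2 regions 18 had a higher mean in UNx and 6 a lower one, where 49.9% of all tested regions were higher. UNx 3 had the most Dab2 regions in its list, 31 against 26 in UNx 1 and 22 in UNx 2. Over the 9 genes together, 44 of 91 regions were higher without UNx 3, so the Dab2 count is not separate from that library. The bases upstream of the internal start are shown because this is the Dab2 promoter with the higher rank.
Dab2 internal promoter, chr15:6386398-6386597: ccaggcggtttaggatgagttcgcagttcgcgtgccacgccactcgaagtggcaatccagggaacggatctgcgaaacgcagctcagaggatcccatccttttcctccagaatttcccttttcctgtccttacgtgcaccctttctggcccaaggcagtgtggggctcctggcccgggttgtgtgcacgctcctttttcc

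Myo6 had a strong promoter (chr9:80164375-80165426) at 98.9, 94.8 and 98.4 in Sham and 96.4, 96.3 and 96.8 in UNx, with overlapping values. An intron region 7.33 kb upstream of an internal start ranked nearly as high, at 90.9 to 95.6 in Sham and 89.6 to 95.9 in UNx. Among the largest differences was an intron region 25.1 kb upstream of the same internal start (chr9:80192271-80192745), at 23.1, 5.27 and 10.3 in Sham and 46.0, 31.5 and 50.9 in UNx. All UNx libraries were higher, by 29.93 ± 10.88 points (SE; limma adjusted p = 0.154). The intron region 86.1 kb downstream of its nearest start was at 26.3, 30.7 and 21.3 in Sham and 0, 0 and 3.89 in UNx (difference −24.80 ± 8.83, SE; limma adjusted p = 0.147). Restricted to peaks with a −log10 q of at least 5, that difference was −7.8. Lists were then cut to 62014 peaks, which moves a region this weak to or towards 0 in every library. The smaller difference follows from that cut. Upstream of the gene, a strong region 6.96 kb from the start was at 84.8, 87.4 and 87.9 in Sham and 80.9, 79.6 and 83.2 in UNx. Its window is shown, chosen after its values were seen, because it combines a high rank, groups that did not overlap and a match to an HNF1 string (GTTAATNAT, in capitals).
Myo6 6.96 kb upstream, chr9:80157969-80158169: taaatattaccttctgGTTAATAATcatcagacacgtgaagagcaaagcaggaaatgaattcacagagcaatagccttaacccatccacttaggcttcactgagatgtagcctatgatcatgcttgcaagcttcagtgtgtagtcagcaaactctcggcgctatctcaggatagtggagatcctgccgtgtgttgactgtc

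Clcn5, of 165.5 kb, had 3.89 regions per 100 kb, near the median of 4.11 over protein-coding genes of at least 100 kb. The promoter at the upstream start (chrX:7318511-7319600) was at 83.3, 82.1 and 87.7 in Sham and 78.6, 80.4 and 83.4 in UNx. The mean was lower in UNx by 3.58 points, with UNx 3 above the lower Sham values, and the difference was −1.90 without Sham 3. A region at an internal start, 827 bp downstream of it, was at 58.3, 79.0 and 58.3 in Sham and 72.2, 75.8 and 71.0 in UNx. Its strongest distal region, 30.5 kb from the nearest start, was at 75.3, 42.5 and 72.1 in Sham and 61.1, 72.8 and 61.0 in UNx, and the direction of its difference turned without Sham 2 or UNx 2.

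The other receptors, Folr1 and Fcgrt, are short genes with dense neighbours. The Folr1 promoter (chr7:101870505-101871695), inside the annotated body of Anapc15, was at 92.6, 91.6 and 90.8 in Sham and 88.0, 88.8 and 84.3 in UNx, with no overlap (difference −4.67 ± 2.22, SE; limma adjusted p = 0.268). The region 11.8 kb upstream (chr7:101882256-101882966), also inside the annotated body of Anapc15, was at 45.3, 58.7 and 42.8 in Sham and 0, 0 and 30.1 in UNx. This was the largest difference in size among the 104 regions, −38.92 ± 11.40 (SE; limma adjusted p = 0.0931). The deposited UNx 1 and UNx 2 lists hold weak peaks there, with −log10 q of 3.29 and 6.02, so the region ranked lower in them but was not absent. Inside the gene, 1.09 kb upstream of an internal start, the strongest distal region was at 58.5, 73.6 and 58.4 in Sham and 72.0, 75.4 and 76.9 in UNx.

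Fcgrt had the highest promoter of the 9 genes (chr7:45102924-45104386), at 99.8, 98.2 and 98.5 in Sham and 99.2, 99.3 and 99.4 in UNx. The difference was 0.46 ± 1.19 points (SE; limma adjusted p = 0.877), and it was −5.41 with ranks by fold enrichment. A region 8.86 kb upstream (chr7:45112485-45112996) was at 45.2, 18.9 and 14.8 in Sham and 46.0, 59.1 and 54.4 in UNx, a difference of 26.88 ± 10.25 (SE; limma adjusted p = 0.172) in which Sham 1 lay just below UNx 1. The intron region 5.92 kb downstream was at 85.6 to 87.9 in Sham and 79.4 to 89.9 in UNx. The bases upstream of the Fcgrt start, the strongest promoter of the set, had 52% G and C and 5 CpG dinucleotides.
Fcgrt promoter, chr7:45103852-45104051: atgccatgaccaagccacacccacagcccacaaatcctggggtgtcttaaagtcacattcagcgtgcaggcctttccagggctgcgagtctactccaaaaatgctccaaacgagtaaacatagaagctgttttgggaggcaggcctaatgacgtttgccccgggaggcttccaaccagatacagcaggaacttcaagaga

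**Figure D3:**
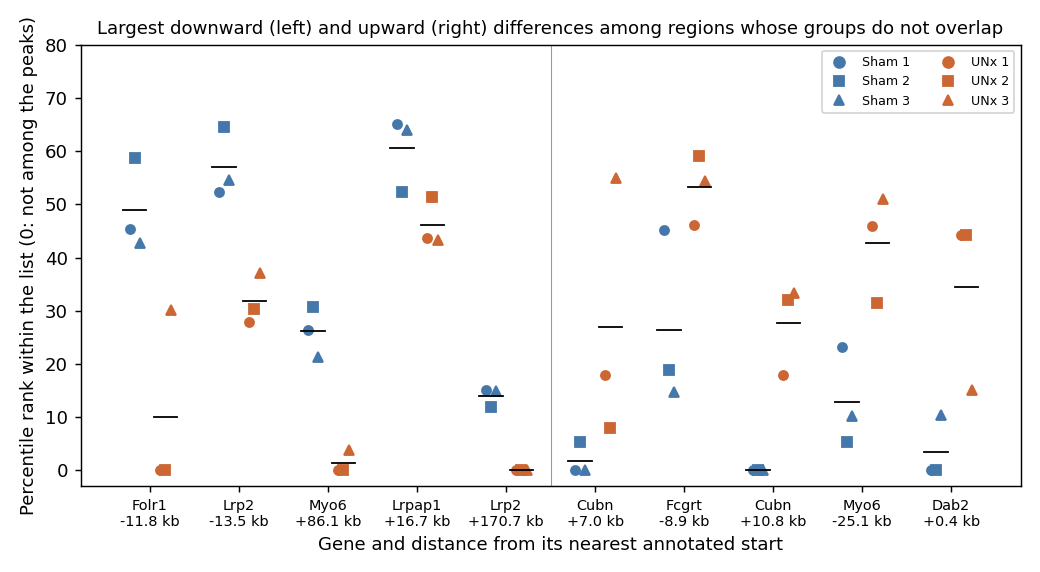
Percentile rank in every library of the 5 regions with the largest downward differences and the 5 with the largest upward ones, among regions of the 9 genes whose Sham (blue) and UNx (orange) values did not overlap; black bars are group means. In 3 of the 5 regions on the left at least 2 UNx libraries sit at 0, and in 3 of the 5 on the right at least 2 Sham libraries do.

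Distal regions had a higher mean in UNx more often than in Sham, but this rested on 1 library. Of the 104 tested regions 64 had a higher UNx mean and 40 a lower one (61.5% higher, against 49.9% of all tested regions), with a median difference of 3.25 points. Among the 78 distal regions 51 were higher, with a median of 3.80. Without UNx 3, 44 of 91 were higher (48.4%, median −0.12), and of the distal regions 35 of 69. UNx 3 gave the highest rank of the 6 libraries in 35 of the 104 regions (33.7%, against 21.1% of all tested regions). Without Sham 2, 52 of 95 were higher. With ranks by fold enrichment the count was 43 higher and 43 lower, and among the 20000 strongest peaks of each list 4 of 18 were higher.

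**Figure D4:**
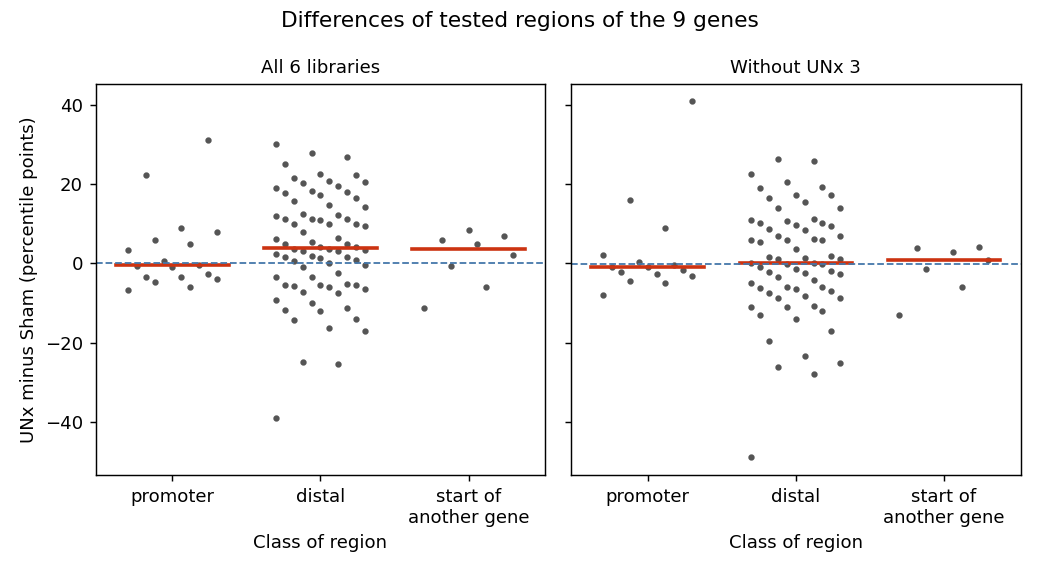
UNx minus Sham difference in percentile points for each tested region of the 9 genes (points) by class, with all 6 libraries and without UNx 3; red bars are medians and the dashed line is the median over all tested regions. The distal median of 3.80 with all libraries is near 0 without UNx 3.

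The number of peaks with a summit in the 9 genes or their flanks was 94, 107 and 95 in Sham 1, 2 and 3 and 106, 108 and 125 in UNx 1, 2 and 3. The means were 98.7 ± 7.23 and 113 ± 10.4 (SD, n = 3 each), and the difference of 14.3 peaks did not pass a two-sided exact permutation test (p = 0.2; the smallest p possible with 3 against 3 is 0.1). It was 8.33 without UNx 3, 18.5 without Sham 2, 26.3 with all deposited peaks, 1 with ranks by fold enrichment and 0 among the 20000 strongest peaks. In the cut lists 4 regions were present in all UNx and no Sham lists, and 1 in all Sham and no UNx lists. These 5 of 139 regions are those described above at Lrp2 (3, including the Sham region), Cubn (1) and Dab2 (1), and 1.98% of all merged regions had such a pattern.

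Short strings typical of factor binding sites were searched within 100 bp of each summit, on both strands and without mismatch. The strings were GTTAATNAT for HNF1, CAAAGTCCA for HNF4, AGGGGGCGC for the insulator protein CTCF, GCGCATGCG for NRF1, CCGGAAGT for ETS and GGGGCGGGG for SP/KLF factors, together with the AP-1 string spelled out with the Lrp2 windows. HNF1 and HNF4 are transcription factors of the proximal tubule, and AP-1 is a family induced by many stimuli. The AP-1 string occurred in 12 of the 104 tested regions of the 9 genes (11.5%, against 7.24% of all tested regions) and the HNF1 string in 7 (6.73%, against 3.11%). HNF4 occurred in 2 (1.92%, against 2.42%) and SP/KLF in 2 (1.92%, against 4.35%), while ETS occurred in 0 (against 1.30%). Of all 139 regions, 8 held the HNF1 string, and they lay at Lrp2, Cubn, Clcn5, Folr1 and Myo6, with the Folr1 promoter the only promoter region among them. Among RefSeq promoter windows (GRCm38.p6), 0.639% held the HNF1 string and 5.48% the AP-1 string. The counts are descriptions of letters, not of binding.

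Other genes of the endocytic pathway were taken from a list of 30 genes for clathrin coats, early and recycling endosomes and the proton pump, by their strongest promoter region. Of these, 29 were tested and 0 passed the threshold (limma; 0.788% of all tested regions), 2 had an unadjusted p under 0.05 (18.6% of all tested regions), and 13 had a higher UNx mean and 16 a lower one, with a median difference of −0.36. The groups did not overlap at 3 of the 29 (Cltc, Rab5a and Rab5c, all lower in UNx), a share near the 10.6% of all tested protein-coding promoters. Cltc, the clathrin heavy chain, was at 91.8, 94.0 and 90.7 in Sham and 80.3, 86.1 and 88.1 in UNx (difference −7.34 ± 2.51, SE; limma adjusted p = 0.135). The largest upward difference was at Inpp5b, a phosphoinositide phosphatase related to Ocrl, with 68.7, 64.0 and 65.7 in Sham and 78.0, 75.2 and 63.5 in UNx (difference 6.10), and these values overlapped.

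The 20 kb limit set which regions counted as members. The outermost region inside it at Folr1, 19.9 kb past the gene end, was the start of Inppl1, at 94.5 ± 2.03 in Sham and 96.5 ± 1.63 in UNx (SD, n = 3). The nearest regions just outside lay 20.1 kb from Fcgrt (0 in Sham and 8.71 ± 15.1 in UNx), 20.5 kb from Myo6 (25.4 ± 24.1 and 6.26 ± 10.8) and 20.8 kb from Lrp2 (47.1 ± 10.1 and 45.1 ± 10.3).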

How the data were processed

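ATAC-seq peak lists of 3 Sham and 3 UNx libraries were used. Per the submitters' processing notes, the authors used cutadapt 3.4, Bowtie, SAMtools, Picard and MACS2 2.2.7.1 with mm10 (GRCm38), and deposited 1 list per library, so replicates were not pooled. The deposited values per summit are a score, a fold enrichment (a ratio), a −log10 p and a −log10 q. They depend on depth, which is unknown, and were used only within a list.

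Each distinct interval with its strongest summit was 1 peak. Lists were cut to 77355 peaks, ranked as percentiles, and merged where intervals overlapped by at least 1 bp. A region took its best peak per list. Regions in at least 3 lists were tested with limma 3.58.1 in R 4.3.3 (trend and robust, UNx minus Sham, two-sided, threshold 0.05), and the step was tested on simulated ranks. Starts came from GENCODE M21 basic transcripts, and for the printed promoter sequences also from the RefSeq promoter table. The Cubn sequence is therefore anchored at 13491876, while the distances of Cubn summits near the promoter use 13491813. The 5′ ends of gene records were added after values had been seen, because the upstream Clcn5 start was otherwise missed. Sequences were read from GRCm38, and 8 of 9 genes matched the RefSeq promoter table.

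The members, lists and strings were chosen with earlier results of these data known. Named regions were, for each gene, the strongest promoter and distal region, the 5 largest rises and falls without overlap of the groups, and regions seen in all lists of 1 operation only; others described beside them were chosen after their values were seen. For the other pathway genes, 1 result that the rule selects is not reported here. Alternatives were all deposited peaks, the 20000 strongest, a −log10 q minimum of 5, ranks by fold enrichment, a reciprocal overlap of 50%, normal scores, no list filter, another variance model, the replicate number as a block, GC-corrected ranks, other flanks and promoter windows, and leaving out each library.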

Additional observations from a re-analysis of the deposited data

How the results depend on the processing

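The count of regions passing the threshold over all regions was unstable, from 589 to 22 with all deposited peaks, 2 with the 20000 strongest, 3 with ranks by fold enrichment, 134 with a reciprocal overlap of 50%, 1583 with normal scores, 2 with no filter on lists, 1 with GC-corrected ranks, and 30 to 379 with 1 library left out. No region of the 9 genes passed under these settings except with the reciprocal overlap. There 2 of 110 tested regions passed, against 134 of 76708 over all regions. Both lay at the Lrpap1 promoter and overlap each other, with differences of 82.4 and −72.1. UNx 2, with 2 separate deposited intervals there as in Sham, ranked with UNx 1 and UNx 3 in both. The first was at 0 in all Sham lists and the second in all UNx lists. Such a 0 means that no peak was joined to that region, not that the promoter lacked peaks. In the main setting this promoter was at 87.5, 96.0 and 83.1 in Sham, with a difference of −2.77. The replicate number as a block gave 55 calls, and 0 with GC-corrected ranks, none at the 9 genes. Deviations from the group means were weakly correlated between libraries of the same number (0.00819, −0.100 and −0.0496). These values cannot decide whether the numbers mark pairs, because deviations within a group of 3 are bound to sum to 0.

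Regions in all 6 lists numbered 16 among the 20000 strongest peaks and 104 with 50 kb flanks. Regions of 1 operation only numbered 0 among the 20000 strongest, 1 with ranks by fold enrichment, 1 with a −log10 q of at least 5, and 6 to 10 with 1 library left out. With fewer lists the rule is easier to meet, so the last count could only stay or rise. The median promoter difference was −13.36 among the 20000 strongest and −10.64 with ranks by fold enrichment, and it was −1.89 with all deposited peaks. Percentiles are counted within the peaks kept, so a cut to the 20000 strongest widens the percentile distance between the same ranks. The −13.36 is therefore on a wider scale than the −3.45 of the main setting and does not show a larger fall.

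Of 466 differences of named regions under an alternative, 22 turned sign. With all deposited peaks these were the Amn promoter (0.20), Dab2 at 21.6 kb (0.48) and Myo6 at 7.33 kb (0.047). With ranks by fold enrichment they were Amn at 5.44 kb (−0.45) and the Fcgrt promoter (−5.41). With GC-corrected ranks, with or without the replicate block, they were Amn at 5.44 kb (−0.0064), the Fcgrt promoter (−0.71) and Myo6 at 7.33 kb (0.22). With the reciprocal overlap it was Folr1 at 1.09 kb (−14.4). With 1 library left out the ranges were −3.61 to 27.5 for Cubn at 12.5 kb, −1.73 to 1.14 for the Amn promoter, −3.03 to 1.14 for Dab2 at 21.6 kb, −8.71 to 7.71 for Clcn5 at 30.5 kb, −5.62 to 0.78 for the Lrpap1 promoter and −1.87 to 1.35 for Myo6 at 7.33 kb. The cause was not tested. The lists hold no read counts, so depth limits what each rank can show.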
